A study of Mus musculus with 14 samples.

Results

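Endothelial cell genes are described here in skeletal muscle of CT and EC-Myc OE mice. They are 36 genes taken by symbol from a list of genes known for their activity in the cells that line blood and lymphatic vessels, the cell type in which the c-Myc transgene of these mice is active. The count table holds 54532 genes, 15458 passed the filter on low counts and were tested, and all 36 endothelial genes were among them. RNA-seq had been carried out on muscle of male FVB/N mice, with both soleus and gastrocnemius taken, and the labels do not say which muscle a library came from.

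EC-Myc OE mice carry a tetracycline transactivator (tTA) under the promoter of Cdh5, together with a human c-Myc transgene under a tetracycline operator (Tet-O-Myc). CT mice came from the same litters and have Tet-O-Myc without tTA, so both genotypes hold the c-Myc transgene and only EC-Myc OE mice can express it through tTA. All mice were raised on doxycycline diet, which keeps the transgene silent, and it was withdrawn between 4 and 6 weeks of age. By the labels, the mice then received control diet (CTD) or western diet (WD) for 20 weeks. The study's text gives a shorter time on diet for the transcriptome. The 14 libraries comprised 3 of CT-CTD, 3 of CT-WD, 4 of OE-CTD and 4 of OE-WD. All mice were male, as Tet-O-Myc is Y-linked in this line. The tTA is driven by the promoter of Cdh5, which is itself among the 36 genes. Human transgene reads were not analysed here, so the genotype labels were not checked against them. The endogenous mouse Myc gene, between 3.06 and 13.3 CPM (counts scaled to library size with TMM factors) in the 14 libraries, did not separate the genotypes and checks nothing about the transgene. 

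The labels of CT-WD and OE-CTD are in doubt. The group sizes in a figure legend of the study do not match the labels and would match them if these 2 labels were swapped. The study also names single genes for OE-WD relative to CT-WD. For Zbtb16 and Rabif both the direction and the size it gives are those of the swapped labels, and for Acsl3 the size is. By the labels, Zbtb16 had a log2 fold change of -0.53 in OE-WD relative to CT-WD (SE 0.153, adjusted p = 0.111 in edgeR's test). With the labels swapped it was 1.23 (SE 0.146, adjusted p = 0.00559 in edgeR's test). Rabif had -0.21 by the labels (SE 0.248) and 1.03 with them swapped (SE 0.237), and Acsl3 had 0.17 (SE 0.163) and 0.65 (SE 0.152), none of these with an adjusted p under 0.05 in edgeR's test. Rrad was lower either way, with -0.55 (SE 0.503) and -0.65 (SE 0.469). The size that the study gives for Rrad is that of the swapped labels too, though these values differ by less than either SE. The study's account is thus that of the swapped labels, and these files do not show whether the labels or the study's assignment is the mistaken one. The labels were kept, and every direction between genotypes or diets is that of the libraries so labelled. With the labels of CT-WD and OE-CTD swapped, 0 of the 36 genes passed edgeR's test with Benjamini-Hochberg adjustment in any of the 3 genotype comparisons. The 17 genes called below for genotype with diets averaged were then called for WD against CTD with genotypes averaged.

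The labels do not say that the libraries of a group came from separate animals, so the p-values measure only the spread between these samples, which may be technical. They give each library a code of unstated meaning. The number in this code was the same for all 4 OE-WD libraries and for OE-CTD 1 to 3, and it differed between all CT libraries. The chi-square per degree of freedom of counts was 8.02 to 10.97 between OE-CTD 1 to 3 and 8.78 to 15.8 between OE-WD 1 to 3. It was 40.8 to 44.6 between OE-WD 4 and the other OE-WD libraries, 39.0 to 45.1 between OE-CTD 4 and the other OE-CTD libraries and 17.7 to 53.1 between CT libraries of a group. In an alternative chosen after seeing the data, libraries with the same number were summed, which left 3 of CT-CTD, 3 of CT-WD, 2 of OE-CTD and 1 of OE-WD, the lone one being assumed to vary like the other groups. That fit lost the genotype calls of the 36 genes, and also nearly all genotype calls over all tested genes. The loss was therefore not particular to the 36. With diets averaged, the log2 fold changes of the 17 genes called below all kept their sign. The log2 fold changes with diets averaged were then 0.32 for Cdh5, 0.64 for Cd93, 1.80 for Bcl6b and -0.83 for Sox18, near those given below. As the calls were lost, those below hold only if these EC-Myc OE libraries are separate samples.

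Endothelial cells keep their layer closed through adhesion proteins such as VE-cadherin, the product of Cdh5, and PECAM-1. They respond to vascular endothelial growth factor and angiopoietins through receptor tyrosine kinases, release nitric oxide to relax vessels, and maintain their identity through transcription factors of the ETS and SOX families. In skeletal muscle most of them form capillaries along the fibres, where they pass oxygen, glucose and fatty acids to the muscle and can sprout to form new vessels.

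The 36 genes were detected in every library, with between 37 and 11779 counts per gene and library. Libraries held between 21833839 and 28519159 counts. Levels of different genes are compared as FPKM, in which counts are scaled to gene length and to a library total. Aqp1, the water channel of capillary endothelium, had the highest level, with 157 ± 17.5 FPKM (SD, n = 14 libraries of all groups). Eng, a co-receptor for TGF-beta family ligands, followed with 25.5 ± 5.46 FPKM, and Cdh5 with 24.2 ± 3.92 FPKM, a difference smaller than either SD. By group, mean FPKM of Eng and Cdh5 was 20.9 and 20.3 in CT-CTD and 29.5 and 21.1 in CT-WD. In OE-CTD it was 23.5 and 24.4 and in OE-WD 28.0 and 29.1, so Cdh5 was the higher in EC-Myc OE. Tal1, a transcription factor of blood and endothelial development, was lowest with 0.823 ± 0.179 FPKM. The median of the 36 mean levels was 6.14 FPKM, compared with 2.39 FPKM over all tested genes. The fast fibre list was led by Myh4 in all 14 libraries, and its summed level was between 102285 and 144273 CPM, so the labelled tissue carried its defining genes.

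The genes differed in how far they varied. Across the 14 libraries the coefficient of variation of CPM was 10.1% for Esam, an adhesion molecule of endothelial junctions, and 11.4% for Aqp1. It was 82.8% for Bcl6b, a transcriptional repressor, 66.2% for Apold1, an endothelial gene of the early response to stimuli, and 44.9% for Sox18, a transcription factor of vascular and lymphatic development. The highest library exceeded the lowest 18.7-fold for Bcl6b, 16.4-fold for Apold1 and 4.00-fold for Sox18. The median over the 36 genes was 20.9%, compared with 17.4% over all tested genes.

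Summed over the 36 genes, EC-Myc OE libraries lay above the CT libraries of the same diet. The summed level was 1314, 1299.5 and 1374 CPM in libraries 1 to 3 of CT-CTD and 1574, 1485 and 1592 CPM in libraries 1 to 3 of CT-WD. It was 1560.3, 1565, 1641 and 1462 CPM in libraries 1 to 4 of OE-CTD and 1636, 1622, 1689 and 1647 CPM in libraries 1 to 4 of OE-WD. There was no overlap on either diet, whereas OE-CTD overlapped CT-WD. Aqp1 was the most abundant of the genes in all 14 libraries. Between 3 and 6 of the 36 genes were above their own mean over all libraries in the CT-CTD libraries. For CT-WD libraries this number was 12 to 19, for OE-CTD libraries 16 to 25 and for OE-WD libraries 22 to 32. In bulk muscle, more endothelial cells and more RNA per endothelial cell cannot be told apart, and all levels below carry that limit.

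With both diets averaged, 17 of the 36 genes passed an adjusted p of 0.05 in edgeR's quasi-likelihood test with Benjamini-Hochberg adjustment, compared with 8.49% of all tested genes. Upregulated were 16 genes, where 5.04% of all genes were called in that direction, and 1 was downregulated, where 3.45% were. With a fold change over 1.5 as well, 5 genes passed (3.64% of all genes), namely Podxl, Cd93, Bcl6b and Apold1, which rose, and Sox18, which fell. At an unadjusted p under 0.05, 23 were higher and 3 lower, compared with 13.1% and 10.8% of all genes. The median log2 fold change of the 36 genes was 0.33, and it was -0.00123 over all tested genes. All 8 EC-Myc OE libraries lay above all 6 CT libraries for 4 genes, Emcn, Mmrn2, Podxl and Cd93, compared with 1.06% of all genes, and they lay below for 0 genes (0.77% of all genes). Of the 17 called genes, 11 passed with each library left out in turn, namely Cdh5, Tek, Tie1, Erg, Cd34, Nos3, Mmrn2, Podxl, Cd93, Bcl6b and Apold1. The number of called genes was 22 without CT-WD 1, where 15.7% of all genes were called, and 11 without CT-WD 2 (4.45%), OE-CTD 2 (5.34%) or OE-WD 2 (5.16%). With the labels of CT-WD and OE-CTD swapped, 0 were called (0.00647% of all genes), and the median was 0.15. At the unadjusted level 10 were then higher and 1 lower, compared with 3.62% and 2.34% of all genes.

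**Figure D1:**
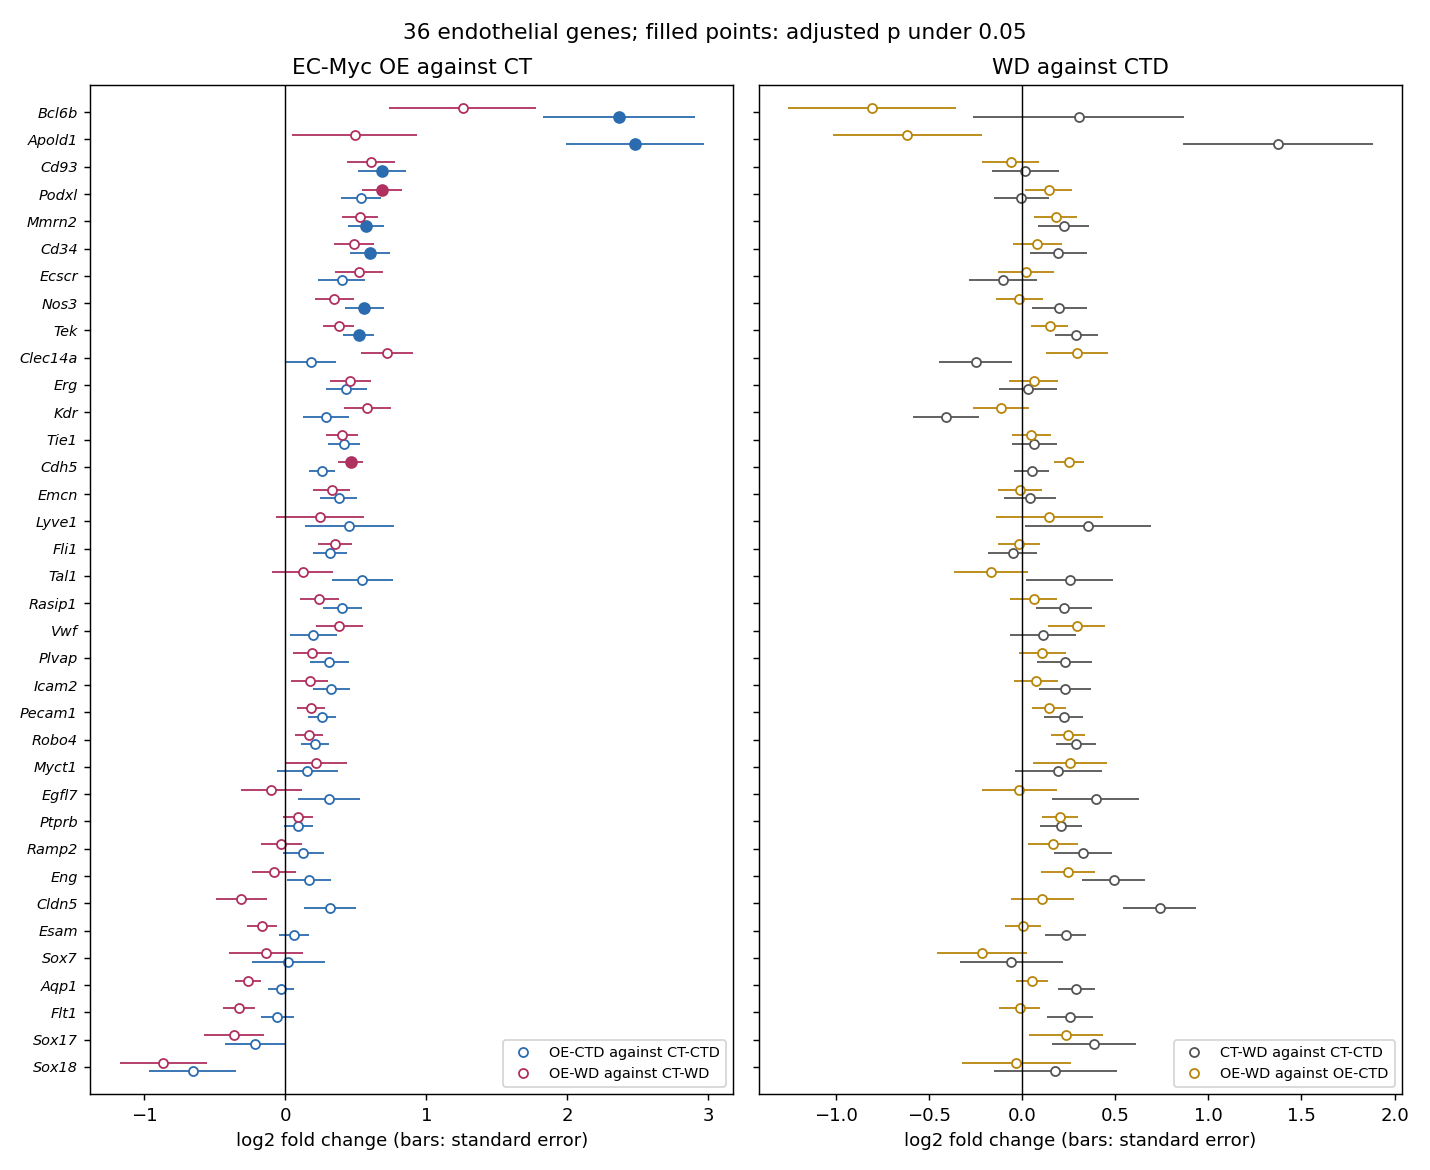
Log2 fold change and standard error of the 36 endothelial genes for EC-Myc OE against CT on each diet (left) and for WD against CTD in each genotype (right), with genes in the order of their genotype fold averaged over diets. Filled points passed the adjusted test. There were 7 for OE-CTD against CT-CTD, 2 for OE-WD against CT-WD and 0 for either diet comparison.

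Among the junction and adhesion genes, Cdh5 rose and Pecam1 did not pass the adjusted test. Cdh5 (ENSMUSG00000031871, chromosome 8 of GRCm38, 104101625 to 104144511, plus strand) encodes VE-cadherin, the cadherin of endothelial adherens junctions. It had 80.8, 74.6 and 79.6 CPM in libraries 1 to 3 of CT-CTD and 86.7, 76.8 and 79.8 CPM in libraries 1 to 3 of CT-WD. It had 99.0, 102, 96.3 and 78.5 CPM in libraries 1 to 4 of OE-CTD and 107, 117, 117 and 106 CPM in libraries 1 to 4 of OE-WD. Every OE-WD library was above every CT-WD library and also above every OE-CTD library, while OE-CTD 4 lay within the range of CT-CTD. Relative to CT-WD, Cdh5 in OE-WD had a log2 fold change of 0.46 (standard error, SE, 0.0905, adjusted p = 0.0322 in edgeR's test), and relative to CT-CTD it was 0.26 in OE-CTD (SE 0.0902, adjusted p = 0.151 in edgeR's test). Averaged over diets it was 0.36 (SE 0.0639, adjusted p = 0.0039 in edgeR's test). The call on WD was lost without CT-WD 2 (edgeR's adjusted p = 0.135), CT-WD 3 (0.142), OE-WD 2 (0.111), OE-WD 3 (0.0961) or OE-WD 4 (0.0683), and a call on CTD appeared without OE-CTD 4 (0.0314).

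Pecam1 (ENSMUSG00000020717, chromosome 11, 106654217 to 106750628, minus strand) encodes PECAM-1, an adhesion receptor of endothelial contacts that is also present on leukocytes and platelets. It had 83.5, 68.6 and 76.8 CPM in libraries 1 to 3 of CT-CTD, 103, 75.5 and 88.7 CPM in libraries 1 to 3 of CT-WD, 97.9, 93.0, 89.2 and 84.7 CPM in libraries 1 to 4 of OE-CTD, and 103, 101, 97.3 and 103 CPM in libraries 1 to 4 of OE-WD. CT-WD 1 was as high as the OE-WD libraries, so that CT-WD and OE-WD overlapped, while OE-CTD lay above CT-CTD. The log2 fold change was 0.18 on WD (SE 0.0984, adjusted p = 0.373 in edgeR's test), or 0.30 without CT-WD 1 and 0.0752 without CT-WD 2, and 0.26 on CTD (SE 0.0987, adjusted p = 0.204 in edgeR's test). Averaged over diets it was 0.22 (SE 0.0697, adjusted p = 0.0643 in edgeR's test), and it passed without CT-WD 1 (0.00965), CT-CTD 1 (0.049) or OE-CTD 4 (0.0492), and by DESeq2's Wald test (0.0361). Of the 5 junction genes Cdh5 alone was called with diets averaged, and the median log2 fold change of the 5 was 0.22.

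Among the 7 receptor genes, Tek, Tie1 and Kdr rose with diets averaged. Tek (ENSMUSG00000006386, chromosome 4, 94739289 to 94874976, plus strand) encodes Tie2, the receptor of the angiopoietins. It had 22.7, 20.0 and 21.8 CPM in libraries 1 to 3 of CT-CTD, 30.9, 23.0 and 24.8 CPM in libraries 1 to 3 of CT-WD, 31.6, 31.7, 29.5 and 30.5 CPM in libraries 1 to 4 of OE-CTD, and 33.5, 32.6, 30.8 and 39.9 CPM in libraries 1 to 4 of OE-WD. OE-CTD lay above CT-CTD without overlap, and CT-WD 1 reached the lowest OE-WD library. Relative to CT-CTD the log2 fold change was 0.52 (SE 0.11, adjusted p = 0.0232 in edgeR's test) and relative to CT-WD it was 0.38 (SE 0.109, adjusted p = 0.11 in edgeR's test). Averaged over diets it was 0.45 (SE 0.0774, adjusted p = 0.00333 in edgeR's test). The call on CTD was lost without CT-CTD 2 (edgeR's adjusted p = 0.111), CT-CTD 3 (0.0941), OE-CTD 1 (0.0563), OE-CTD 2 (0.0683) or OE-CTD 3 (0.0529).

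Tie1, the orphan receptor that forms complexes with Tie2, rose by 0.41 with diets averaged (SE 0.08, adjusted p = 0.00662 in edgeR's test), and each EC-Myc OE group lay above the CT group on the same diet. Kdr encodes the main signalling receptor for vascular endothelial growth factor. It had 30.1, 58.6 and 55.6 CPM in libraries 1 to 3 of CT-CTD and 36.7, 35.7 and 36.2 CPM in libraries 1 to 3 of CT-WD, whereas the EC-Myc OE libraries ranged from 50.5 to 63.2 CPM. CT-CTD 1 was near the CT-WD libraries and the other CT-CTD libraries were within the range of EC-Myc OE. Kdr rose by 0.44 with diets averaged (SE 0.117, adjusted p = 0.0318 in edgeR's test), a call lost without CT-WD 2 (0.0761), CT-WD 3 (0.0638), OE-CTD 1 (0.0517), OE-CTD 2 (0.0664) or OE-WD 2 (0.0678).

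Flt1 (ENSMUSG00000029648, chromosome 5, 147561604 to 147726011, minus strand) encodes the receptor that binds vascular endothelial growth factor tightly and also acts as its trap. It had 76.2, 65.1 and 83.9 CPM in libraries 1 to 3 of CT-CTD, 83.5, 79.5 and 106 CPM in libraries 1 to 3 of CT-WD, 67.7, 71.9, 70.5 and 78.6 CPM in libraries 1 to 4 of OE-CTD, and 81.2, 62.7, 68.2 and 73.9 CPM in libraries 1 to 4 of OE-WD. The groups overlapped on both diets, with CT-WD 3 the highest library. Its log2 fold change was -0.33 on WD (SE 0.116, adjusted p = 0.173 in edgeR's test), or -0.19 without CT-WD 3, and -0.06 on CTD (SE 0.117, adjusted p = 0.872 in edgeR's test), where the log2 fold change was 0.0311 without CT-CTD 3. Averaged over diets it was -0.19 (SE 0.0822, adjusted p = 0.169 in edgeR's test), or -0.12 without CT-WD 3. Robo4, Ptprb and Eng completed the receptors, with averaged log2 fold changes between 0.04 and 0.19 and no call.

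Of the 7 transcription factors, 3 rose and 1 fell with diets averaged. The ETS factors Erg and Fli1, which maintain endothelial gene expression, rose by 0.45 (SE 0.103, adjusted p = 0.0153 in edgeR's test) and by 0.33 (SE 0.0866, adjusted p = 0.027 in edgeR's test). The call of Fli1 was lost without CT-CTD 1 (0.05), CT-CTD 2 (0.0674), CT-WD 2 (0.0736), CT-WD 3 (0.0665), OE-CTD 2 (0.062), OE-CTD 3 (0.0583) or OE-WD 2 (0.0611), and without the filter on low counts (0.0702). Bcl6b had 7.32, 5.10 and 2.26 CPM in libraries 1 to 3 of CT-CTD, 9.80, 3.24 and 4.85 CPM in libraries 1 to 3 of CT-WD, 10.7, 22.4, 42.3 and 26.0 CPM in libraries 1 to 4 of OE-CTD, and 6.07, 10.2, 20.1 and 21.5 CPM in libraries 1 to 4 of OE-WD. The OE-CTD libraries were all above CT-CTD but spread about 4-fold (10.7 to 42.3 CPM), and OE-WD 1 lay within the range of CT-WD. Bcl6b rose by 2.37 in OE-CTD relative to CT-CTD (SE 0.538, adjusted p = 0.0317 in edgeR's test) and by 1.81 with diets averaged (SE 0.374, adjusted p = 0.00904 in edgeR's test). On WD its log2 fold change was 1.26 (SE 0.52, adjusted p = 0.238 in edgeR's test). The call on CTD was lost without CT-CTD 2 (0.119), CT-CTD 3 (0.157), OE-CTD 2 (0.0684) or OE-CTD 3 (0.0902). It was also lost with the replicate number as a block (edgeR's adjusted p = 0.0557).

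Sox18 (ENSMUSG00000046470, chromosome 2, 181669836 to 181671640, minus strand) was the 1 gene of the 36 called lower in EC-Myc OE. It had 13.8, 27.3 and 23.9 CPM in libraries 1 to 3 of CT-CTD, 11.9, 23.6 and 38.2 CPM in libraries 1 to 3 of CT-WD, 15.5, 12.6, 17.2 and 9.54 CPM in libraries 1 to 4 of OE-CTD, and 16.6, 12.9, 12.3 and 12.01 CPM in libraries 1 to 4 of OE-WD. CT-CTD 1 and CT-WD 1 lay within the range of EC-Myc OE, and the other CT libraries were all above it. The log2 fold change was -0.87 on WD (SE 0.309, adjusted p = 0.175 in edgeR's test) and -0.66 on CTD (SE 0.31, adjusted p = 0.315 in edgeR's test). Averaged over diets it was -0.76 (SE 0.219, adjusted p = 0.0426 in edgeR's test). This call was lost in 10 of the 14 fits that each left out a library, namely CT-CTD 2 (0.117), CT-CTD 3 (0.101), CT-WD 2 (0.0814), CT-WD 3 (0.137), OE-CTD 1 (0.0579), OE-CTD 2 (0.0819), OE-CTD 4 (0.064), OE-WD 2 (0.0801), OE-WD 3 (0.0767) or OE-WD 4 (0.0703). limma on log2(FPKM + 1) did not call it either (adjusted p = 0.105). edgeR did not call Sox18 with the replicate number as a block (adjusted p = 0.105) or without OE-CTD 4 and OE-WD 4 (0.0927). On WD the log2 fold change was -1.20 without CT-WD 1 (adjusted p = 0.0118 in edgeR's test) and -0.39 without CT-WD 3 (0.706). The related Sox7 and Sox17 had averaged log2 fold changes of -0.06 and -0.29 with no call, and Tal1 had 0.33 with no call.

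Sialomucins and surface glycoproteins held the largest share of called genes among the 6 classes, 5 of 7 with diets averaged, and their median log2 fold change was 0.45. Podxl (ENSMUSG00000025608, chromosome 6, 31519488 to 31563981, minus strand) encodes podocalyxin, a sialomucin of the luminal surface. It had 52.8, 63.8 and 70.6 CPM in libraries 1 to 3 of CT-CTD, 67.0, 46.4 and 73.0 CPM in libraries 1 to 3 of CT-WD, 99.8, 101, 78.2 and 83.3 CPM in libraries 1 to 4 of OE-CTD, and 101, 101, 95.0 and 102 CPM in libraries 1 to 4 of OE-WD. No EC-Myc OE library was as low as any CT library. Podxl rose by 0.68 in OE-WD relative to CT-WD (SE 0.142, adjusted p = 0.0399 in edgeR's test). On CTD its log2 fold change was 0.54 (SE 0.141, adjusted p = 0.0563 in edgeR's test), and with diets averaged it was 0.61 (SE 0.1, adjusted p = 0.00268 in edgeR's test). The call on WD was lost without CT-WD 2 (0.135), CT-WD 3 (0.0934), OE-WD 1 (0.0567), OE-WD 2 (0.111), OE-WD 3 (0.0892) or OE-WD 4 (0.0883), and also without CT-CTD 2 (0.0533), OE-CTD 1 (0.055) or OE-CTD 2 (0.0524).

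Cd93, a C-type lectin-like receptor that binds multimerin-2, had 28.4, 35.9 and 36.3 CPM in libraries 1 to 3 of CT-CTD, 38.2, 30.9 and 32.6 CPM in libraries 1 to 3 of CT-WD, 43.1, 53.6, 65.3 and 54.0 CPM in libraries 1 to 4 of OE-CTD, and 40.9, 47.8, 47.9 and 70.2 CPM in libraries 1 to 4 of OE-WD. The genotypes did not overlap. It rose by 0.69 on CTD (SE 0.171, adjusted p = 0.0451 in edgeR's test) and by 0.65 with diets averaged (SE 0.121, adjusted p = 0.00524 in edgeR's test). Its call on CTD was lost without CT-CTD 1 (0.137), CT-CTD 2 (0.119), CT-CTD 3 (0.127), OE-CTD 2 (0.107), OE-CTD 3 (0.136), OE-CTD 4 (0.0629), OE-WD 2 (0.0547) or OE-WD 3 (0.0607). Cd34, a sialomucin that endothelial cells share with fibroblasts and other progenitors, rose by 0.60 on CTD (SE 0.144, adjusted p = 0.0389 in edgeR's test) and by 0.54 with diets averaged (SE 0.102, adjusted p = 0.00525 in edgeR's test). For Cd34 that call was lost without CT-CTD 1 (0.105), CT-CTD 2 (0.0718), CT-CTD 3 (0.162), OE-CTD 1 (0.0755), OE-CTD 2 (0.121), OE-CTD 3 (0.113) or OE-WD 3 (0.0591). Emcn and Clec14a, both surface glycoproteins of endothelial cells, rose by 0.35 and 0.45 with diets averaged (edgeR's adjusted p = 0.0277 and 0.0439). The call of Emcn was lost without CT-CTD 1 (0.0503), CT-WD 2 (0.0734), OE-CTD 1 (0.0534), OE-CTD 2 (0.0551), OE-CTD 3 (0.0511) or OE-WD 2 (0.0598). For Clec14a it was lost without CT-CTD 1 (0.0866), CT-CTD 3 (0.111), CT-WD 2 (0.116), CT-WD 3 (0.11), OE-CTD 1 (0.0613), OE-CTD 2 (0.0856), OE-CTD 3 (0.0834), OE-WD 1 (0.058), OE-WD 2 (0.0945) or OE-WD 3 (0.0872). Plvap, of the diaphragms of fenestrae, and Lyve1, a hyaluronan receptor of lymphatic endothelium and some macrophages, did not pass.

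Mmrn2 (ENSMUSG00000041445, chromosome 14, 34375465 to 34404287, plus strand), which encodes the matrix protein multimerin-2 that lies against endothelial cells, had the smallest p of the 36 genes with diets averaged. It had 22.6, 21.3 and 16.2 CPM in libraries 1 to 3 of CT-CTD, 27.8, 20.9 and 21.3 CPM in libraries 1 to 3 of CT-WD, 31.2, 31.0, 28.8 and 28.1 CPM in libraries 1 to 4 of OE-CTD, and 29.6, 36.2, 32.9 and 36.3 CPM in libraries 1 to 4 of OE-WD. All EC-Myc OE libraries were above all CT libraries, the nearest being CT-WD 1. Mmrn2 rose by 0.57 on CTD (SE 0.128, adjusted p = 0.0303 in edgeR's test) and by 0.55 with diets averaged (SE 0.0901, adjusted p = 0.00268 in edgeR's test). On WD its log2 fold change was 0.53 (SE 0.127, adjusted p = 0.0627 in edgeR's test), which passed without CT-WD 1 (0.00697) or CT-CTD 3 (0.0484). The call on CTD was lost without CT-CTD 2 (0.0807), CT-CTD 3 (0.155), OE-CTD 1 (0.0713), OE-CTD 2 (0.0892) or OE-CTD 3 (0.0718). The other secreted products, Vwf and Egfl7, did not pass, with averaged log2 fold changes of 0.29 and 0.11.

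Among the 7 genes of signalling and transport, Nos3, Apold1 and Ecscr rose with diets averaged. Nos3, the endothelial nitric oxide synthase, had 11.02 ± 0.825 CPM (SD, n = 3) in CT-CTD, 12.6 ± 2.14 CPM (SD, n = 3) in CT-WD, 16.3 ± 1.79 CPM (SD, n = 4) in OE-CTD and 16.1 ± 2.22 CPM (SD, n = 4) in OE-WD. It rose by 0.56 on CTD (SE 0.138, adjusted p = 0.0438 in edgeR's test) and by 0.45 with diets averaged (SE 0.0975, adjusted p = 0.0109 in edgeR's test). On CTD the call of Nos3 was lost without CT-CTD 1 (0.123), CT-CTD 2 (0.117), CT-CTD 3 (0.147), OE-CTD 1 (0.0569), OE-CTD 2 (0.0836), OE-CTD 3 (0.123), OE-CTD 4 (0.0739), OE-WD 2 (0.0509) or OE-WD 3 (0.0602). Ecscr, a surface protein of endothelial chemotaxis, rose by 0.46 with diets averaged (SE 0.119, adjusted p = 0.0262 in edgeR's test), a call lost without CT-CTD 2 (0.0594), CT-CTD 3 (0.0561), CT-WD 2 (0.0758), CT-WD 3 (0.0511), OE-CTD 2 (0.0593), OE-WD 2 (0.0526) or OE-WD 3 (0.0548).

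Apold1 had 4.75, 1.84 and 1.47 CPM in libraries 1 to 3 of CT-CTD, 10.1, 2.75 and 7.87 CPM in libraries 1 to 3 of CT-WD, 9.32, 11.9, 24.0 and 15.1 CPM in libraries 1 to 4 of OE-CTD, and 8.44, 5.65, 13.99 and 11.2 CPM in libraries 1 to 4 of OE-WD. OE-CTD lay above CT-CTD without overlap, whereas CT-WD and OE-WD overlapped. It rose by 2.48 on CTD (SE 0.489, adjusted p = 0.0163 in edgeR's test) and by 1.49 with diets averaged (SE 0.33, adjusted p = 0.0129 in edgeR's test). On WD the log2 fold change was 0.49 (SE 0.444, adjusted p = 0.618 in edgeR's test). The call on CTD was lost without CT-CTD 2 (0.0868), CT-CTD 3 (0.1) or OE-CTD 3 (0.0529).

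Aqp1 (ENSMUSG00000004655, chromosome 6, 55336432 to 55348555, plus strand) had 386, 328 and 365 CPM in libraries 1 to 3 of CT-CTD, 426, 468 and 424 CPM in libraries 1 to 3 of CT-WD, 360.5, 328, 388 and 331 CPM in libraries 1 to 4 of OE-CTD, and 389, 335, 395 and 343 CPM in libraries 1 to 4 of OE-WD. The 3 CT-WD libraries were above all others, and the remaining groups overlapped. Its log2 fold change was -0.27 in OE-WD relative to CT-WD (SE 0.0926, adjusted p = 0.169 in edgeR's test) and -0.03 on CTD (SE 0.0929, adjusted p = 0.919 in edgeR's test), and it was not called. Because Aqp1 makes up a large part of the summed CPM, its level in CT-WD enters the summed values given above.

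**Figure D2:**
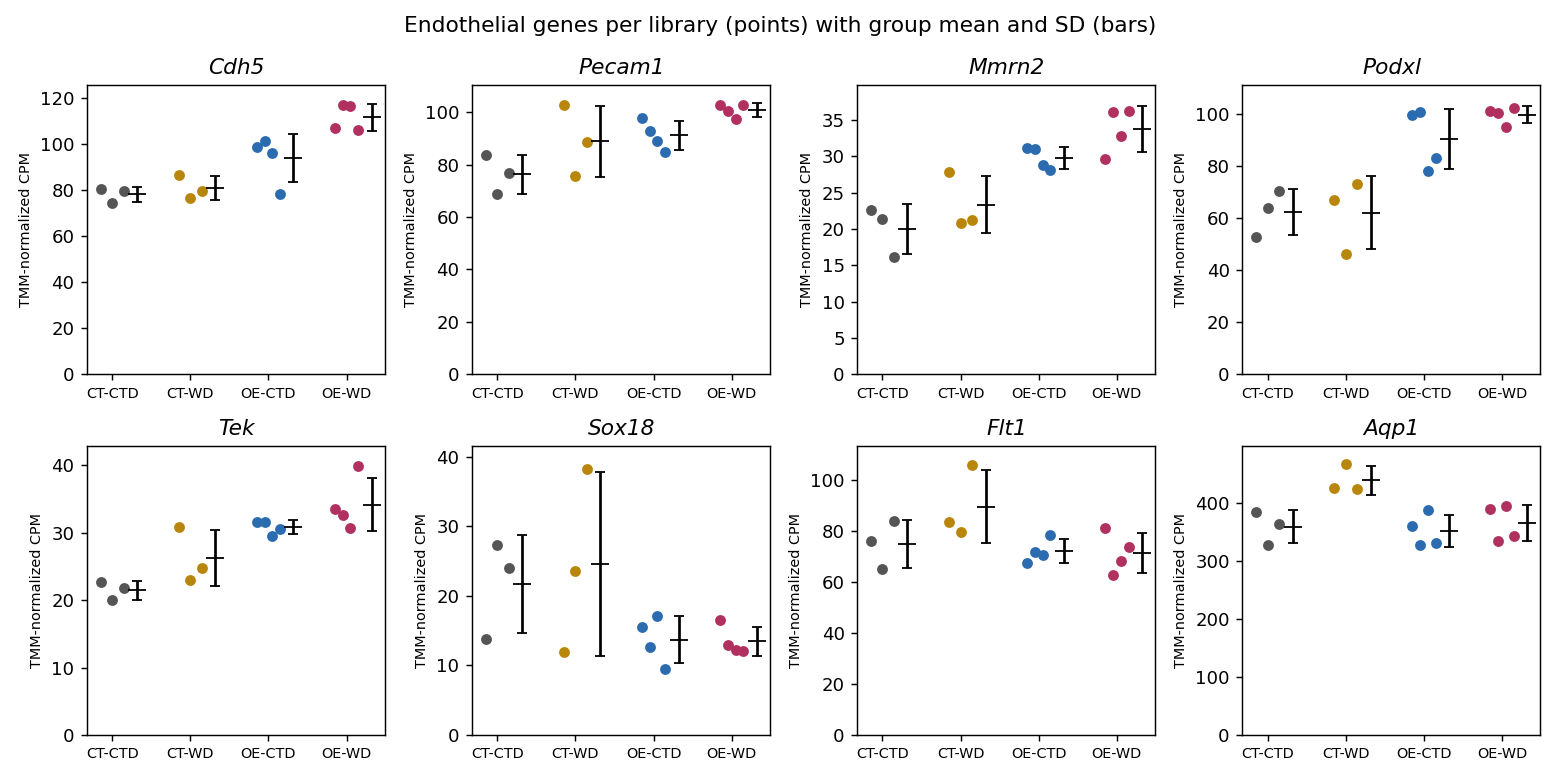
TMM-normalized CPM of 8 endothelial genes in each library (points) of CT-CTD, CT-WD, OE-CTD and OE-WD, with the group mean and SD (bars, n = 3 for CT groups and n = 4 for OE groups). The EC-Myc OE libraries of Mmrn2 and Podxl lay above every CT library, while those of Sox18 lay within or below the range of CT, and the CT-WD libraries were highest for Aqp1.

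On each diet apart, 7 of the 36 genes were called in OE-CTD relative to CT-CTD by edgeR's test with Benjamini-Hochberg adjustment, compared with 2.67% of all genes. All 7 were higher, where 1.57% of all genes were called, and 0 lower, where 1.11% were. They were Apold1, Tek, Mmrn2, Bcl6b, Cd34, Nos3 and Cd93. A fold change over 1.5 was also reached by 4 of them (1.91% of all genes). Taking an unadjusted p under 0.05, 20 genes were higher and 0 lower, compared with 9.22% and 6.7% of all genes, and DESeq2's Wald test and limma on log2(FPKM + 1) gave 19 higher and 0 lower each. There was 1 lower with DESeq2's size factors, in the model of those groups alone and in a fit of unfiltered counts. The OE-CTD libraries lay above CT-CTD without overlap for 17 genes (8.73% of all genes) and below for 0 (6.75%). The median log2 fold change was 0.32, compared with -0.000702 over all genes. The number called was 0 without CT-CTD 2 (0.674% of all genes) or CT-CTD 3 (0.485%), 1 without OE-CTD 2 (0.787%) or OE-CTD 3 (0.786%), 3 without OE-CTD 1 (1.26%) and 4 without CT-CTD 1 (2.19%) or OE-WD 3 (1.91%). limma called 3 genes, Tek, Mmrn2 and Apold1 (1.49% of all genes), and DESeq2's Wald test called 9 (5.17%). Under the swapped labels 0 were called (0% of all genes), with 6 higher and 1 lower at the unadjusted level (4.19% and 3.09%).

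On WD, 2 of the 36 genes were called between OE-WD and CT-WD, Cdh5 and Podxl, both higher, compared with 0.725% of all genes. With a fold over 1.5 there was 1, Podxl (0.563% of all genes). Before adjustment, 16 were higher and 3 lower at p under 0.05, Sox18, Flt1 and Aqp1, compared with 8.44% and 8.42% of all genes. The OE-WD libraries lay above CT-WD without overlap for 11 genes and below for 2, Esam and Aqp1, compared with 6.06% and 5.54% of all genes. The median log2 fold change was 0.24, or 0.37 without CT-WD 1, compared with 0.01 over all genes. The number called rested on single libraries, with 11 without CT-WD 1, where 9.47% of all genes were called. It was 3 without CT-CTD 1 (0.731%) or CT-CTD 3 (0.561%), and 1 without CT-CTD 2 (0.548%), OE-CTD 1 (0.422%), OE-CTD 2 (0.325%) or OE-WD 1 (0.85%). It was 0 without CT-WD 2, CT-WD 3, OE-WD 2, OE-WD 3 or OE-WD 4, where 0.026% to 0.0974% of all genes were called. DESeq2's Wald test called 9 (3.71% of all genes), limma on log2(FPKM + 1) called 1 (0.311%), and edgeR called 0 with the CTD libraries kept out of the fit (0.0269%). Under the swapped labels 0 were called (0.00647% of all genes), with 2 higher and 0 lower at the unadjusted level (1.93% and 2.27%).

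The comparisons on CTD and on WD have no library in common, but they may not be independent. Deviations of same-number libraries correlated across diets by 0.385, 0.123 and 0.203 in CT and by 0.0711 to 0.338 in EC-Myc OE. At an unadjusted p under 0.05 on each diet, 13 of the 36 genes were higher on both, Cdh5, Tek, Tie1, Emcn, Erg, Fli1, Cd34, Nos3, Ecscr, Mmrn2, Podxl, Cd93 and Bcl6b, compared with 3.57% of all genes. These 13 were 65% of the 20 higher on CTD and 81.2% of the 16 higher on WD. The sign was the same on both diets for 30 of 36 genes (83.3%), compared with 64.5% of all genes. Genes are no independent replicates, and as a description across the 36 the log2 fold changes on both diets had a Pearson correlation of 0.68 and a Spearman correlation of 0.71, compared with 0.49 and 0.42 across all tested genes. For 6 genes, Tie1, Emcn, Erg, Mmrn2, Podxl and Cd93, libraries of both genotypes did not overlap on either diet (1.72% of all genes).

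Whether the genotype difference itself changed with diet was tested as the diet by genotype interaction. edgeR's test called 0 of the 36 genes, compared with 0% of all genes, and the smallest adjusted p was 0.825. At an unadjusted p under 0.05 there were 0 higher and 2 lower, compared with 2.57% and 3.34% of all genes, and DESeq2's Wald test and limma also called 0, with 3 and 2 at the unadjusted level. The 2 were Apold1, with a log2 difference of -1.99 (SE 0.647, adjusted p = 0.825 in edgeR's test), and Cldn5, of endothelial tight junctions, with -0.63 (SE 0.259, adjusted p = 0.834). For Cdh5 the difference was 0.20 (SE 0.127, adjusted p = 0.878 in edgeR's test), or 0.13 without OE-CTD 4, and for Pecam1 it was -0.08 (SE 0.139, adjusted p = 0.964), with a log2 difference of 0.0383 without CT-WD 1. The calls on single diets were therefore not shown to differ between the diets. Without the filter on low counts, Apold1 was called. With the replicate number within each genotype as a block, edgeR called 0 of the 36 (0.00647% of all genes), with 2 higher and 6 lower at the unadjusted level. The share of all genes at that level is not given for this fit.

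Diet comparisons gave no calls among the 36 genes. In CT-WD relative to CT-CTD, edgeR's test called 0 genes, compared with 0% of all genes, and the smallest adjusted p was 0.427, for Cldn5. There were 6 genes higher and 1 lower at an unadjusted p under 0.05, compared with 4.19% and 3.09% of all genes. DESeq2's Wald test and limma called 0, with 8 genes each at the unadjusted level. With the replicate number within each genotype as a block, edgeR called 0 of the 36 and 13 of all tested genes (0.0841%). At the unadjusted level 12 of the 36 were then higher and 1 lower. The share of all genes at that level is not given for this fit, so these counts have no background. This block paired CT-WD with CT-CTD by number, and OE-WD with OE-CTD in the same fit. Cldn5 had 15.6, 15.8 and 12.6 CPM in libraries 1 to 3 of CT-CTD and 30.7, 21.99 and 20.5 CPM in libraries 1 to 3 of CT-WD, with a log2 fold change of 0.74 (SE 0.197, adjusted p = 0.427 in edgeR's test). The groups did not overlap for Cldn5, and 8 of the 36 genes were higher in CT-WD without overlap, compared with 4.47% of all genes, and 0 lower, compared with 5.16%. The other genes higher at the unadjusted level were Eng, Aqp1, Robo4, Apold1 and Tek, with log2 fold changes between 0.29 and 1.37, and the gene lower was Kdr, with -0.41 (SE 0.176, adjusted p = 0.646 in edgeR's test). CT-CTD 1 was the low library of Kdr in CT-CTD, and the value was -0.67 without it and -0.24 without CT-CTD 2. For Eng it was 0.49, or 0.18 without CT-WD 3. The median log2 fold change of the 36 genes was 0.22, or 0.13 without CT-WD 1, compared with 0.01 over all genes. Without the filter on low counts, Cldn5 was called.

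In OE-WD relative to OE-CTD, edgeR's test also called 0 of the 36 genes, compared with 0.00647% of all genes, and every adjusted p was 1. Before adjustment 2 were higher and 0 lower at p under 0.05, compared with 1.93% and 2.27% of all genes, and DESeq2's Wald test and limma called 0, with 2 higher each. The model of those groups alone also called 0, with 6 higher and 0 lower, where the share of all genes at that level is not given. The 2 genes higher in the model of all libraries were Cdh5, with a log2 fold change of 0.25 (SE 0.083), and Robo4, a receptor of vessel stability, with 0.25 (SE 0.0908). Neither passed edgeR's adjusted test. Cdh5 and Eng were higher in OE-WD without overlap (1.84% of all genes), and 0 genes were lower without overlap (2.23%). The median log2 fold change was 0.07, between 0.0315 without OE-CTD 4 and 0.11 without OE-WD 4. The CT and EC-Myc OE diet comparisons share no library, and Robo4 was the 1 gene higher at the unadjusted level in both, compared with 0.194% of all genes. Averaged over genotypes, 0 genes were called (0.00647% of all genes), with 10 higher and 1 lower at the unadjusted level by edgeR (3.62% and 2.34% of all genes), 11 and 1 by DESeq2, and 10 and 0 by limma. No gene was higher or lower on WD without overlap of the libraries of both genotypes (0 genes, compared with 0.0453% and 0.0129% of all genes). Robo4 had the smallest p, with a log2 fold change of 0.27 (SE 0.0697, adjusted p = 0.487 in edgeR's test).

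Other genes of endothelial cells were described from further lists by the same test with diets averaged. For these and the marker lists further below, 5.04% of all genes were called higher and 3.45% lower. At an unadjusted p under 0.05 the shares were 13.1% and 10.8%. Of 40 endothelial genes outside the 36, 8 rose, 3 fell and 29 did not pass, with a median log2 fold change of 0.21. Tm4sf1, a tetraspanin-like surface protein, rose by 0.61 (SE 0.0792, adjusted p = 0.000676 in edgeR's test), and Ets1, an ETS transcription factor of angiogenesis, rose by 0.60 (SE 0.113, adjusted p = 0.00572 in edgeR's test). Timp4, an inhibitor of matrix metalloproteinases, fell by 0.99 (SE 0.109, adjusted p = 0.000374 in edgeR's test), and Kank3 had -0.29 (adjusted p = 0.0298 in edgeR's test). The summed level of the list was 1880.2 ± 110.1 CPM (SD, n = 3) in CT-CTD, 1982 ± 138 CPM (SD, n = 3) in CT-WD, 2009 ± 186 CPM (SD, n = 4) in OE-CTD and 2012 ± 114 CPM (SD, n = 4) in OE-WD, and libraries of all 4 groups overlapped.

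Lists by vessel type were not tested against each other, and the venous list holds Vwf and the lymphatic list Lyve1, both among the 36. Of 9 capillary genes, 3 rose and 2 fell, and their median log2 fold change was 0.01. Cxcl12, a chemokine, rose by 0.49 (adjusted p = 0.0201 in edgeR's test) and Aplnr, the apelin receptor, by 0.93 (adjusted p = 0.024), as did Meox2, a homeobox transcription factor, by 0.62 (adjusted p = 0.0453), whereas Car4, a carbonic anhydrase on the capillary surface, fell by 0.71 (adjusted p = 0.0207) and Gpihbp1, which carries lipoprotein lipase to the capillary lumen, fell by 0.35 (adjusted p = 0.0302). Of 10 arterial genes, 2 rose, Unc5b by 0.91 and Fbln5 by 0.48 (edgeR's adjusted p = 0.00287 and 0.0111). Of 8 venous genes, 2 rose, Aplnr, which is also on the capillary list, and Selp, the adhesion molecule P-selectin, by 0.95 (edgeR's adjusted p = 0.0411). Of 8 lymphatic genes, 2 rose, Pdpn by 0.89 and Flt4 by 0.38 (edgeR's adjusted p = 0.0174 and 0.0283), and Ccl21a was at 0 in 1 library. Pdpn is also expressed by fibroblasts.

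Promoter sequence was available for 17 of the 36 genes, in RefSeq on GRCm38.p6, as the 250 bases before each annotated start, which gave 22 promoters. Searched on both strands were CACGTG, the E-box letters bound by Myc with Max, AGGAAG and CGGAAG for ETS factors, AACAAT for SOX factors and AGATAA for GATA factors. No matches overlapped each other in these promoters (0 promoters). CACGTG was in 0 of the 22 promoters, compared with 6.02% of all 32851 promoters in the table. AGGAAG was in 12 (54.5%), compared with 29.5% of all promoters, and CGGAAG in 1 (4.55%), compared with 13.6%. AACAAT was in 3 (13.6%), compared with 9.42%, and AGATAA in 3 (13.6%), compared with 9.99%. A match says only that the letters are in the window, and its absence only that they are not. Of the genes called with diets averaged, 7 had a single promoter in the table, and the 5 of these with a match are printed 5′ to 3′ on the strand of the gene, with matched letters in capitals. CTTCCT is the reverse complement of AGGAAG and ATTGTT that of AACAAT. They lie at chr6:134981751-134982000 (plus strand, Apold1), chr1:194938571-194938820 (plus strand, Cd34), chr3:137340828-137341077 (plus strand, Emcn), chr4:94739039-94739288 (plus strand, Tek) and chr4:118489850-118490099 (minus strand, Tie1).
Apold1: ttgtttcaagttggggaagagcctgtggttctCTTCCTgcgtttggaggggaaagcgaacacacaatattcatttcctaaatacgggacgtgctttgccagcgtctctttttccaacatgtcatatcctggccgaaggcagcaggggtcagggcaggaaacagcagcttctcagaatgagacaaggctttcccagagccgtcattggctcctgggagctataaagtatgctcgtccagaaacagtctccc
Cd34: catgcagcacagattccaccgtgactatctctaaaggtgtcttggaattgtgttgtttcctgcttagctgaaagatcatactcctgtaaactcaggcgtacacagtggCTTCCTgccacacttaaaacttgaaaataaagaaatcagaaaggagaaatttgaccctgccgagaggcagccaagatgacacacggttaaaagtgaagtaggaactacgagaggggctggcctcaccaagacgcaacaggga
Emcn: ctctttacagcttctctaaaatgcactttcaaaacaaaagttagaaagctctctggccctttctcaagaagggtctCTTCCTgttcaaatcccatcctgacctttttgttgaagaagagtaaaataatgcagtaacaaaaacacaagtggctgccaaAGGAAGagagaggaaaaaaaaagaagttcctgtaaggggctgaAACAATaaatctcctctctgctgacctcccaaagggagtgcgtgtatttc
Tek: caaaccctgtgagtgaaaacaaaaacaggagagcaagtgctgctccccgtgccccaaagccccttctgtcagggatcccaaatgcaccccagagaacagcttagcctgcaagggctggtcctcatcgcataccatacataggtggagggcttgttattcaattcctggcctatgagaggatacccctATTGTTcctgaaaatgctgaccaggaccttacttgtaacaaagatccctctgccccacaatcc
Tie1: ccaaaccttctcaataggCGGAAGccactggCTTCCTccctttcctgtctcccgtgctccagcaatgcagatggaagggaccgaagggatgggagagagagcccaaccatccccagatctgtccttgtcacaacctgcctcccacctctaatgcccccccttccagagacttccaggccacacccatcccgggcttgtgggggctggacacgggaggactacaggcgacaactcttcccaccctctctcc

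Fibroblast markers moved with the genotypes. Of 8 fibroblast genes, which include Cd34, 7 rose with diets averaged, compared with 5.04% of all genes. All 8 were higher at an unadjusted p under 0.05 (13.1% of all genes), with a median log2 fold change of 0.65. Pi16, a marker of adventitial fibroblasts, rose by 0.51 (adjusted p = 0.0136 in edgeR's test) and Col1a1, of type I collagen, by 1.53 (adjusted p = 0.0234 in edgeR's test). The summed level of the list, led by Dcn in 12 of 14 libraries and by Col1a1 in the others, was 501, 481 and 385 CPM in libraries 1 to 3 of CT-CTD and 1089, 435 and 423 CPM in libraries 1 to 3 of CT-WD. It was 1027, 1196, 1143 and 722 CPM in libraries 1 to 4 of OE-CTD and 818, 1700.1, 1013 and 841 CPM in libraries 1 to 4 of OE-WD. CT-WD 1, without which 11 of the 36 endothelial genes and 9.47% of all genes were called on WD, was within the range of EC-Myc OE. No gene of this list was at 0 in any library (0 genes). The part of the fibroblast genes in the result for the endothelial genes was not tested.

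Of 12 leukocyte and macrophage genes, 9 were tested and 0 were called by edgeR's test with diets averaged, with 5 higher and 0 lower at an unadjusted p under 0.05 and a median log2 fold change of 0.50. Csf1r, the receptor of macrophage colony-stimulating factor, came nearest to a call, with an adjusted p of 0.0796 by edgeR and a log2 fold change of 0.71. On CTD alone 6 of the 9 were higher at the unadjusted level (9.22% of all genes) and on WD 0 were (8.44%). The list's summed level, led by Csf1r in 9 libraries and by C1qa in the others, was 62.4, 38.7 and 33.3 CPM in libraries 1 to 3 of CT-CTD, 102, 48.3 and 40.7 CPM in libraries 1 to 3 of CT-WD, 59.0, 76.8, 93.9 and 70.3 CPM in libraries 1 to 4 of OE-CTD, and 59.2, 106, 64.6 and 74.0 CPM in libraries 1 to 4 of OE-WD. Cd3e and Cd79a, of T and B cells, were each at 0 in 4 libraries and S100a8, of neutrophils, in 3. CT-CTD 1 and CT-WD 1 lay within the range of the EC-Myc OE libraries. Pecam1, Lyve1 and Cd34 are genes that some leukocytes, macrophages or fibroblasts also express, and the part of such cells was not tested.

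**Figure D3:**
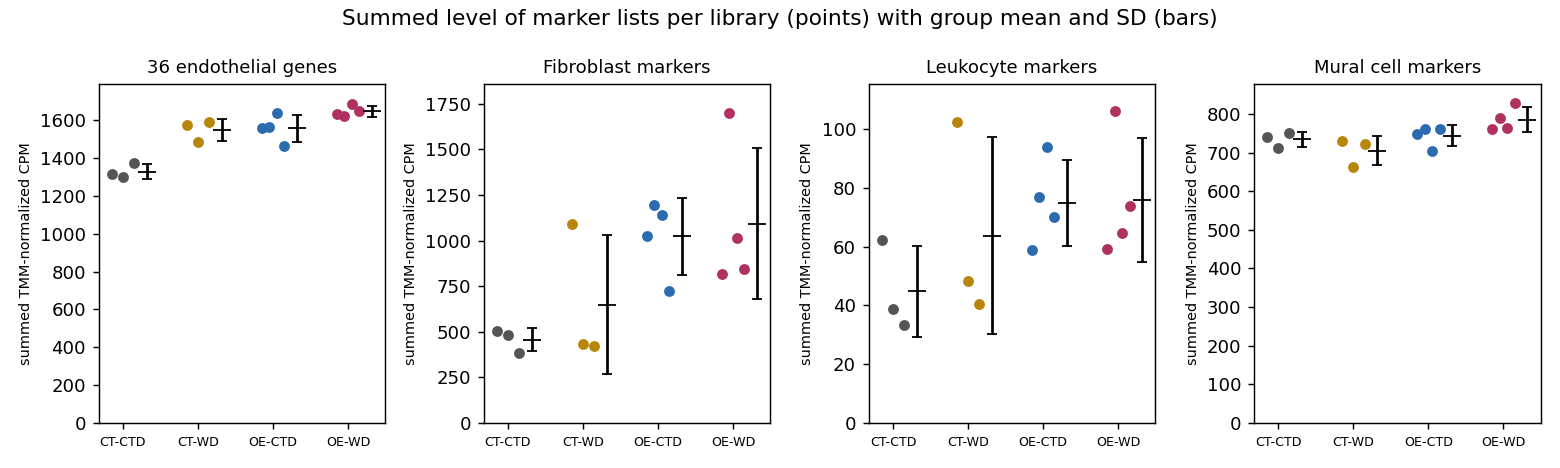
Summed TMM-normalized CPM of the 36 endothelial genes, of 8 fibroblast, 12 leukocyte and 10 mural cell markers in each library (points), with the group mean and SD (bars, n = 3 for CT groups and n = 4 for OE groups). By their group means, the sums of all 4 lists were higher in both EC-Myc OE groups than in both CT groups, and CT-WD 1 stood above the other CT libraries for the fibroblast and leukocyte markers.

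Of 10 mural cell genes, 3 rose, Cspg4 by 0.72, Pdgfrb by 0.32 and Notch3 by 0.33 (edgeR's adjusted p = 0.0115, 0.032 and 0.0345), and the summed level of the list, led by Abcc9 in 11 libraries and by Rgs5 in the others, was 735 ± 19.3 CPM (SD, n = 3) in CT-CTD, 705 ± 37.5 CPM (SD, n = 3) in CT-WD, 744 ± 26.7 CPM (SD, n = 4) in OE-CTD and 786 ± 31.7 CPM (SD, n = 4) in OE-WD. Markers of blood gave 1 call. Of 4 red blood cell genes tested out of 8, edgeR called 0, with 0 at an unadjusted p under 0.05, and of 3 platelet genes tested out of 6, Gp1ba fell by 0.53 (adjusted p = 0.0498 in edgeR's test), while Gp1bb was at 0 in all 14 libraries. Of 6 adipocyte genes, Lep rose by 2.25 (adjusted p = 0.0136 in edgeR's test) and 5 did not pass, among them Cfd with -0.96 (adjusted p = 0.133), and the median was 0.20, or -0.19 on CTD alone. Of 9 slow fibre genes, Atp2a2 and Casq2 rose by 0.41 and 0.40 (edgeR's adjusted p = 0.0063 and 0.0123). edgeR called 0 of 5 satellite cell, 9 fast fibre and 6 Schwann cell genes, with 3, 0 and 0 genes at an unadjusted p under 0.05.

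Of 14 glucocorticoid-responsive genes, 13 were tested, and 6 fell, 0 rose and 7 did not pass edgeR's test with diets averaged. At an unadjusted p under 0.05 there were 8 lower and 0 higher (10.8% and 13.1% of all genes). On CTD 6 were lower and 2 higher (6.7% and 9.22%), and on WD 8 were lower and 0 higher (8.42% and 8.44%). The median log2 fold change with diets averaged was -0.51, and Mt2 was at 0 in 9 libraries. Fkbp5, a co-chaperone of the glucocorticoid receptor, fell by 2.10 (SE 0.283, adjusted p = 0.000816 in edgeR's test) and Zbtb16, a transcription factor induced by glucocorticoids, by 0.78 (SE 0.109, adjusted p = 0.000925 in edgeR's test). The summed level, led by Pdk4 in all 14 libraries, was 4309, 3361 and 3974 CPM in libraries 1 to 3 of CT-CTD, 4385, 5668 and 5832 CPM in libraries 1 to 3 of CT-WD, 2579, 2468, 2579 and 2266 CPM in libraries 1 to 4 of OE-CTD, and 3940.0, 2453, 3079 and 2408 CPM in libraries 1 to 4 of OE-WD. OE-CTD lay below CT-CTD and OE-WD below CT-WD without overlap. Their part in the levels of the endothelial genes was not tested.

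A pair of libraries stood apart in composition. OE-CTD 4 and OE-WD 4 had the lowest TMM factors, 0.888 and 0.899, and the highest share of mitochondrial counts, 14.9% and 14.5%, compared with 9.66% to 12.8% in the other libraries. In an alternative chosen after seeing the data, both were left out. edgeR then called 16 of the 36 genes with diets averaged (10.8% of all genes), all among the 17. For OE-CTD relative to CT-CTD it called 8 (3.61%), of which 6 were among the 7. For OE-WD relative to CT-WD it called 1, Cdh5 (0.0326%). With all libraries these shares were 8.49%, 2.67% and 0.725%. The gene lost from the averaged comparison was Sox18.

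Of the 36 genes, 12 overlap another annotated gene, and the authors' strand setting is not stated, so reads of such pairs cannot be told apart. The overlapping gene's mean CPM exceeded 5% of that of the endothelial gene in 4 cases, Plvap with Gtpbp3 (50.6%), Egfl7 with Agpat2 (19.9%), Rasip1 with A030001D20Rik (13.5%) and Eng with Fpgs (9.03%), all on the opposite strand. None of these 4 genes was called by edgeR's test with the filter and groups as described. With diets averaged, Rasip1 was called without the filter, with a stricter filter, by DESeq2's Wald test and without OE-WD 1, and Plvap with the replicate number as a block and without CT-WD 1.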

How the data were processed

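RNA-seq libraries of skeletal muscle were grouped by their labels. The authors deposited counts of reads per gene, without normalization, and the authors also deposited FPKM values scaled to gene length and library total. The submitters' processing notes name HISAT2 2.0.5, featureCounts 1.5.0-p3 and the build mm10 (GRCm38), and the strand setting is not stated. Of 54409 gene identifiers shared with the reference annotation, 53499 had the same position, including all 36 endothelial genes.

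The tests used edgeR 4.0.16 under R 4.3.3 (TMM, filterByExpr, quasi-likelihood test, 14 libraries with a mean for each of 4 groups), with Benjamini-Hochberg adjustment over 15458 genes. A gene was called at an adjusted p under 0.05. The steps were tested on simulated data. The biological coefficient of variation was 17.0%, and the number of libraries limits precision. Libraries of a group differed by more than sampling noise (chi-square per degree of freedom between 8.02 and 53.1).

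Alternatives were DESeq2 1.42.0 (size factors, Wald test), limma 3.58.1 on log2(FPKM + 1) and log2(FPKM + 0.1), no filter, a stricter filter (at least 1 CPM in 3 libraries), models of the compared groups alone, the replicate number as a block, each library left out, and the labels of CT-WD and OE-CTD swapped. Added after seeing the data were the fit without OE-CTD 4 and OE-WD 4 and the fit with libraries of the same label number summed. Deviations of CT-WD and CT-CTD libraries with the same number correlated by 0.385, 0.123 and 0.203, all over 0.1, so these numbers were taken as pairs, from this check alone. In the genotype comparisons the block was the replicate number over both genotypes. In the diet comparisons and the interaction it was the replicate number within each genotype. That block paired CT-WD with CT-CTD, and also OE-WD with OE-CTD.

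The endothelial genes and marker lists were chosen with earlier results of these data known. Named genes were Cdh5, Pecam1, each called gene, and per comparison the 3 of smallest p in each direction, with up to 2 per direction for other lists. Genes listed only to complete a count or class were chosen after their values were seen.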

Additional observations from a re-analysis of the deposited data

Results flagged for a closer look

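In groups of 4 libraries, the highest or lowest value was set against the spread of the others by Dixon's ratio for each of the 36 endothelial genes, 72 groups in all, and 3 values stood apart. Chance marks about 1 in 20 such groups, so 3 of 72 is not above what chance would mark. Vwf was 43.8 CPM in OE-CTD 4, where the other OE-CTD libraries had 31.3 to 33.3 CPM. Sox7 was 11.8 CPM in OE-CTD 3, where the others had 6.86 to 7.66 CPM. Ptprb was 78.9 CPM in OE-WD 4, where the others had 64.2 to 66.6 CPM. OE-CTD 4 and OE-WD 4 are the libraries with the lowest TMM factors and the highest mitochondrial share, and the part of this in these values was not tested. Groups of 3 were not examined in this way. No interaction between diet and genotype passed edgeR's adjusted test for the 36 genes (0 genes, with 2 at an unadjusted p under 0.05).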

How the results depend on the processing

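Counts of called genes among the 36 changed with the group names and with what is taken as a replicate. With the labels of CT-WD and OE-CTD swapped, 0 were called for OE-WD against CT-WD (0.00647% of all genes). Also 0 were called for OE-CTD against CT-CTD (0%) and with diets averaged (0.00647%). The diet comparisons then gave 7 for CT-WD against CT-CTD (2.67%) and 2 for OE-WD against OE-CTD (0.725%). WD against CTD with genotypes averaged gave 17 (8.49%). These counts moved because the swap turns genotype contrasts into diet contrasts and the reverse. The medians of the genotype and diet comparisons then became 0.0679 for OE-WD against CT-WD, 0.22 for OE-CTD against CT-CTD, 0.15 with diets averaged, 0.32 for CT-WD against CT-CTD, 0.24 for OE-WD against OE-CTD and 0.33 for WD against CTD averaged. Among the genes named for each comparison, log2 fold changes that changed sign in this setting were Aqp1 0.0548 for OE-WD against CT-WD; Sox18 0.18, Sox17 0.38 and Flt1 0.26 for OE-CTD against CT-CTD; Kdr -0.26, Fli1 -0.035, Sox18 0.0724, Ecscr -0.0417, Cd93 -0.0228, Bcl6b -0.25, Flt1 0.12 and Aqp1 0.17 with diets averaged; Aqp1 -0.0307, Kdr 0.29, Clec14a 0.18 and Ecscr 0.40 for CT-WD against CT-CTD; Bcl6b 1.26 and Apold1 0.49 for OE-WD against OE-CTD; and Kdr 0.44 and Bcl6b 1.81 for WD against CTD averaged.

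With libraries that share a label number summed, chosen after seeing the data, fewer libraries were left, with 1 in OE-WD. The genotype calls of the endothelial genes were then lost, and so were nearly all genotype calls over all tested genes. The loss was therefore not particular to the endothelial genes. The endothelial genes called with diets averaged in the model as reported all kept the sign of their log2 fold change.

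For OE-WD against CT-WD, 2 genes were called in the model as reported. DESeq2's Wald test called 9 (3.71% of all genes), the fit without the filter on low counts 10 (2.01%), limma 1 with either pseudocount (0.311% and 0.246%), the model of those groups alone 0 (0.0269%), and the fit without OE-CTD 4 and OE-WD 4, chosen after seeing the data, 1 (0.0326%), compared with 0.725% in the model as reported. For OE-CTD against CT-CTD limma called 3 with either pseudocount (1.49% and 1.68% of all genes). DESeq2's Wald test called 9 (5.17%), the fit without the filter 9 (2.72%) and the model of those groups alone 8 (4.04%). The model as reported called 7 (2.67%). Without the filter, 1 gene each was called for CT-WD against CT-CTD (Cldn5, 0.333% of all genes) and for the interaction (Apold1, 0.104%). DESeq2's size factors in edgeR kept the same 2, 7 and 17 genes. The cause of these differences was not tested.

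The replicate number as a block, over libraries of both genotypes, gave 1 gene for OE-WD against CT-WD (Cdh5, 0.802% of all genes). It gave 9 for OE-CTD against CT-CTD (4.44%) and 17 with diets averaged (11%). The model as reported had 0.725%, 2.67% and 8.49%. For the diet comparisons and the interaction the block was the replicate number within each genotype. It gave 0, with 0.00647% to 0.0841% of all genes called. At an unadjusted p under 0.05 the block gave 12 higher and 1 lower for CT-WD against CT-CTD and 6 higher and 2 lower for OE-WD against OE-CTD. For the interaction it gave 2 higher and 6 lower, and for WD against CTD averaged over genotypes 14 higher and 1 lower. The shares of all genes at that level are not given for the block, so these unadjusted counts have no background. With diets averaged, 15 of the 17 were kept, Sox18 and Fli1 were lost and Pecam1 and Plvap gained. For OE-CTD against CT-CTD, Bcl6b was lost and Cdh5, Tie1 and Erg gained. Libraries with the same number in OE-WD and OE-CTD correlated by 0.0711, 0.138, 0.142 and 0.338, each best with its own number. This is a hint of pairing from the data, but not every value was over 0.1, so they were not taken as pairs. The block of the diet comparisons and the interaction did pair them by number. Libraries of different genotypes correlated by -0.23 to 0.0465 and share only a number.

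With each library left out, called genes ranged from 0 to 11 for OE-WD against CT-WD. In the fits with 0 and with 11, 0.026% to 0.0974% and 9.47% of all genes were called. For OE-CTD against CT-CTD the range was 0 to 8, with 0.485% to 0.674% and 2.53% to 3.89% of all genes. With diets averaged it was 11 to 22, with 4.45% to 5.34% and 15.7% of all genes. Among the genes named for each comparison, to which these values are limited, log2 fold changes that changed sign were Flt1 for OE-CTD against CT-CTD (-0.15 to 0.0311), Cdh5 for CT-WD against CT-CTD (-0.00104 to 0.0876) and Pecam1 for the interaction (-0.18 to 0.0383). Of the values of single genes with a library left out, 856 kept direction and side of the threshold, 100 lost a call, 7 gained one and 3 changed sign.

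Limits are the number of libraries, the mismatch between labels and study, the unknown muscle and animal of each library, and the mix of cells in bulk muscle. Every gene of the 36 had at least 37 counts in each library. Bcl6b, Apold1 and Sox18 had the widest spread within groups, with an SD of log2 CPM of 0.84, 0.75 and 0.50.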
